A study of Mus musculus with 4 samples.

Results

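The ERK feedback and immediate-early genes are 39 genes chosen by name, with earlier results of these data known. They are 10 dual-specificity phosphatases (Dusp1, 2, 4, 5, 6, 7, 8, 10, 14 and 16), 6 Sprouty and Spred genes, 3 ETV factors, 4 EGR factors, 7 Fos and Jun genes, and 9 other early-response genes (Ier2, Ier3, Ier5, Myc, Klf4, Klf6, Klf10, Phlda1 and Arc). They were measured in Beta-TC-6, a mouse pancreatic beta cell line, on Affymetrix Mouse Gene 2.1 ST arrays. The 2 siNF45 samples had received a pooled set of RNAi duplexes against NF45, the product of Ilf2, which pairs with NF90 to bind double-stranded RNA. The 2 siNTC samples had received a negative control siRNA. Both groups shared the same lipid transfection reagent and a medium with 25 mM glucose and 15% serum. The labels give neither the time after transfection nor whether the samples came from separate cultures, and a p-value here covers the scatter among these arrays alone, which may be technical. The line is a tumour-derived one, kept in high glucose and serum. Of the 39 members, 38 had a probe set with a single gene symbol, out of 22180 genes with one, and Fosl1 was not analysed here. The brightest probe set stood for each gene. A gene was tested if its mean over the 4 arrays reached 1.645, the median of all probe sets on the log2 scale, which 34 members and 11742 genes in all did.

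Growth factors, glucose and cyclic AMP all activate the MAP kinase ERK in beta cells. Active ERK switches on immediate-early genes such as Fos and Egr1 within minutes, without new protein synthesis, and a slower set of feedback genes that quench the signal. Dual-specificity phosphatases remove the activating phosphates from ERK, JNK or p38, Sprouty and Spred proteins act upstream at the level of Ras and Raf, and the ETV factors Etv4 and Etv5 are induced by ERK downstream of fibroblast growth factor receptors. Levels of Dusp6, Spry2, Spry4, Etv4 and Etv5 are often read as a record of recent ERK activity. These arrays measure RNA and not ERK phosphorylation.

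The knockdown target itself, Ilf2, read 3.67 and 3.77 on the siNF45 arrays, against 5.79 and 5.98 on the siNTC arrays, and fell by 2.17 on the log2 scale (SE 0.13, limma adjusted p = 0.020). The arrays were of similar distribution, with array medians of 1.66 in siNF45 and 1.64 in siNTC over all probe sets, but over the tested genes the medians were 3.72 and 3.60 in siNF45, against 3.82 and 3.76 in siNTC. The siNF45 replicate 2 array was the lowest of the 4 arrays for 38.6% of tested genes and for 20 of the 34 tested members. The 13 measured beta cell markers had means between 2.48 and 10.1, and summed to 93.1 and 93.5 in siNF45, against 94.9 and 93.7 in siNTC. Within that sum, 4 markers lay lower without overlap (Chgb, Pcsk1, Slc2a2 and Iapp), or 30.8%, against 32.6% of all tested genes. Only Slc30a8 lay higher without overlap, or 7.69%, against 15.2%. The largest differences were those of Chgb, -0.77 (SE 0.14, limma adjusted p = 0.105), and Pcsk1, -0.44 (SE 0.12, limma adjusted p = 0.180). The islet hormones Gcg and Sst, which mark alpha and delta cells, were also present, with means of 7.58 and 8.57, and the 3 hormones of other islet cells (with Ppy) summed to 18.9 and 18.2 in siNF45, against 19.1 and 18.8 in siNTC. Within that sum Sst differed by -0.89 (SE 0.16, limma adjusted p = 0.103), Ppy by 0.52 (SE 0.22, limma adjusted p = 0.307) and Gcg by -0.02. Sst and Ppy thus moved in opposite directions, each without overlap, which the sum does not show. Of 13 measured markers of acinar, ductal, endothelial, immune or mesenchymal cells, 4 reached the level for testing. Their sums over the 13 were 20.6 and 20.2 in siNF45, against 20.4 and 20.2 in siNTC. One of the 4, the duct keratin Krt7, read 3.91 and 3.96 in siNF45, against 3.41 and 3.13 in siNTC, a difference of 0.67 (SE 0.14, limma adjusted p = 0.132) without overlap. The part of these markers in the results below was not tested. In RNA from a whole culture, fewer cells of a kind and less RNA per cell cannot be told apart.

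The feedback and immediate-early genes lay mostly lower in siNF45, led by Dusp6, Fosb, Klf4, Spry2 and Dusp4, while Jun lay higher. The members were chosen with earlier results of these data known, so the shares below are descriptions and not a test of the list. Of the 34 tested members, 26 differed below 0 and 7 above, with a median of -0.31 on the log2 scale, where 61.3% of all tested genes lay below 0 around a median of -0.07. No member passed an adjusted p of 0.05 in limma, a level that 10 of all tested genes reached, 0.0766% lower and 0.00852% higher. At an unadjusted p under 0.05, 14 members lay lower, or 41.2%, against 13.2% of all tested genes, and 1 was higher (Jun), or 2.94%, against 4.02%. At an adjusted p under 0.10, 5 members were lower, or 14.7%, against 1.36% of all tested genes, and 0 were higher, against 0.255%. The siNF45 arrays lay wholly below the siNTC arrays for 18 members, or 52.9%, against 32.6% of all tested genes, and wholly above for 3 (Jun, Phlda1 and Dusp1), or 8.82%, against 15.2%. Since Spry1 reached the filter only through its siNTC arrays, the counts were also made without a filter, where 15 of 38 members, with Etv4 added, lay lower at an unadjusted p under 0.05, against 8.27% of 22180 genes. Centring each array on its median over the tested genes moved the median of all tested genes to 0.065 and that of the members to -0.18. After it, 11 of the 34 members lay lower, against 7.40% of all tested genes, and 3 of the 34 higher (Jun, Phlda1 and Dusp1), against 10.7%.

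**Figure D1:**
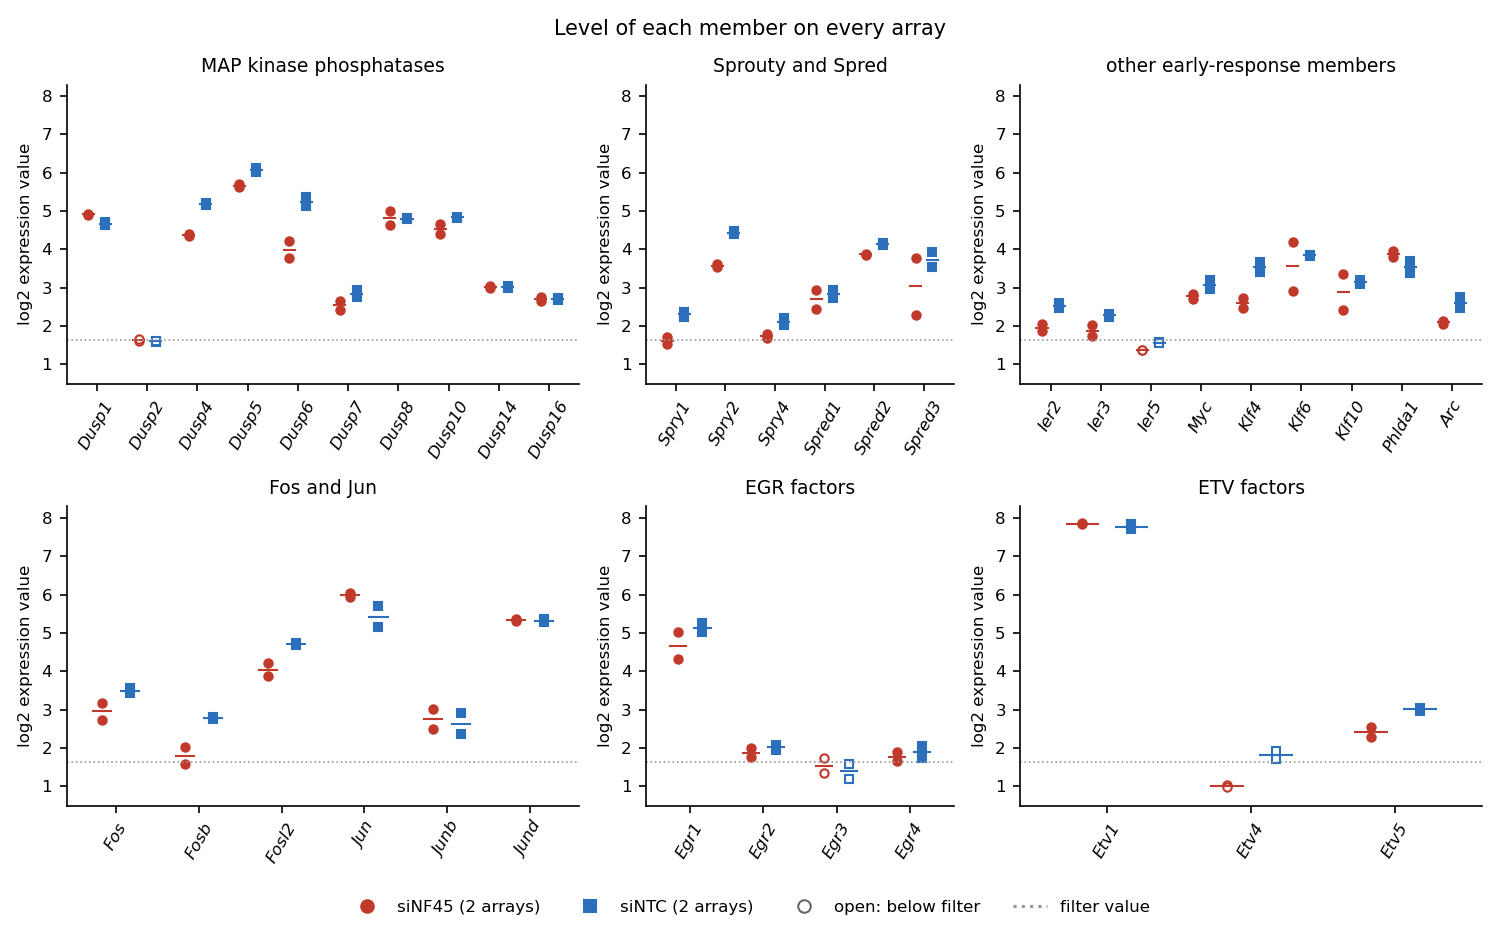
Log2 expression value (vertical axis) of the 38 measured members on every array, in 6 panels by family. Circles are the 2 siNF45 arrays and squares the 2 siNTC arrays, short lines are group means, open symbols are members below the filter, and the dotted line is the filter value of 1.645. Dusp4, Dusp6, Spry2, Fosb and Klf4 show siNF45 arrays well below siNTC arrays, and Spred3, Klf6 and Klf10 show siNF45 arrays far apart.

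Among the phosphatases, the largest differences were those of Dusp6 and Dusp4. Dusp6, a cytoplasmic phosphatase selective for ERK, read 3.78 and 4.21 on the siNF45 arrays, against 5.37 and 5.12 on the siNTC arrays. It averaged 4.0 ± 0.30 in siNF45 and 5.25 ± 0.18 in siNTC (SD, n = 2 each), a difference of -1.25 (SE 0.19, limma adjusted p = 0.0791), or 2.38-fold lower. Every siNF45 array was below every siNTC array, and the gap between the groups was larger than the gap within either group. A second, dim Dusp6 probe set with a mean of 1.16, below the filter, differed by -0.16. Dusp4, a nuclear phosphatase that is itself an ERK target, read 4.34 and 4.41 in siNF45, against 5.20 and 5.15 in siNTC. It differed by -0.80 (SE 0.12, limma adjusted p = 0.0791), 1.74-fold lower, with replicates of both groups closer than 0.1 to each other.

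Dusp5, a nuclear phosphatase selective for ERK, read 5.71 and 5.62 in siNF45, against 6.13 and 6.02 in siNTC, a difference of -0.41 (SE 0.12, limma adjusted p = 0.201). The groups did not overlap. Dusp7, a cytoplasmic relative of Dusp6, read 2.65 and 2.43 in siNF45, against 2.93 and 2.77 in siNTC, and differed by -0.31 (95% interval -0.66 to 0.04, limma adjusted p = 0.336). Dusp5, Dusp6 and Dusp7 thus ranged from -1.25 to -0.31, each lower without overlap, as were 32.6% of all tested genes.

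Among the phosphatases that act mainly on JNK and p38, Dusp10 differed by nearly as much as Dusp7, and Dusp8 and Dusp16 lay near 0. Dusp10 read 4.41 and 4.66 in siNF45, against 4.85 and 4.82 in siNTC, a difference of -0.30 (95% interval -0.64 to 0.04, limma adjusted p = 0.338), and its groups did not overlap. Dusp8 differed by 0.01 (95% interval -0.37 to 0.39) and Dusp16 by 0.00 (95% interval -0.30 to 0.30). The Dusp8 and Dusp16 intervals include 0, and whether the ERK-selective group and the JNK and p38 group differ was not tested. Dusp14, a small atypical phosphatase, differed by -0.01 (95% interval -0.30 to 0.28), and its sign turned with the scaling of the arrays, at 0.05 after quantile normalization and 0.12 after centring each array. Dusp1, the nuclear phosphatase first described as an immediate-early gene, read 4.91 and 4.92 in siNF45, against 4.64 and 4.71 in siNTC. It differed by 0.24 (SE 0.12, 95% interval -0.05 to 0.53, limma adjusted p = 0.364), with both siNF45 arrays above both siNTC arrays. Dusp2, at 1.62 and 1.66 in siNF45 and 1.58 and 1.62 in siNTC, was below the level for testing.

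The proximal promoters of 3 phosphatases are shown because their RNA differed to different degrees: Dusp5 and Dusp6 lower in siNF45 and Dusp1 higher, none of them past an adjusted p of 0.05. The sequences are from RefSeq on GRCm38.p6 and run from 250 bases before to 50 bases after the start of the gene. RefSeq entries matched 28 of the 39 members, with 34 promoters in all, since some genes have several. Entries for Arc, Dusp4, Egr1, Egr3, Etv4, Fosl1, Ier2, Klf10, Myc, Phlda1 and Spry4 were not used here. Capitals mark matches on either strand to the CArG box bound by serum response factor, the cyclic AMP response element TGACGTCA or its half-site TGACG, the AP-1 site TGANTCA, the ETS site CCGGAAG and the EGR site GCGNGGGCG, where a full cyclic AMP response element also counts as a half-site.
Dusp5 (chr19:53528895-53529194, plus strand): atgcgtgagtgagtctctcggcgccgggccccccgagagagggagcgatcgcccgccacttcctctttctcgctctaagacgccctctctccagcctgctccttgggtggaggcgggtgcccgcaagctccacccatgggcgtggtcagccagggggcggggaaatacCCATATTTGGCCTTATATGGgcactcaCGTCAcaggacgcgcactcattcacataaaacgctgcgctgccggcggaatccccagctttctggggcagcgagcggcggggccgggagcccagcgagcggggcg
Dusp6 (chr10:99262981-99263280, plus strand): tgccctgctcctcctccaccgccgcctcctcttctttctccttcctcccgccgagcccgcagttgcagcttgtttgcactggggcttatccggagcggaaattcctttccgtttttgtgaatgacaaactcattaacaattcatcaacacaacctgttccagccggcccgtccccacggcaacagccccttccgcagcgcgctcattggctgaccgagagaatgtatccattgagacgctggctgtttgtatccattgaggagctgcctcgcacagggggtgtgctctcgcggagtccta
Dusp1 (chr17:26508423-26508722, minus strand): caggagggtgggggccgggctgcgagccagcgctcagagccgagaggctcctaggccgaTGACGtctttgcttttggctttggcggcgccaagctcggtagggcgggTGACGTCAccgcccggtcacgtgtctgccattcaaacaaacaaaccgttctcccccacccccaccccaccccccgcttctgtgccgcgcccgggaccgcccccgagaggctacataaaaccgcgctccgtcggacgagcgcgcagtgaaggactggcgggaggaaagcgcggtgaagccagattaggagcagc
Dusp5 held 2 CArG boxes side by side, 82 to 73 and 72 to 63 bases before the start, and a half-site 55 to 51 bases before it. Dusp1 held a full cyclic AMP response element 143 to 136 bases before the start and a further half-site, and Dusp6 held no match in this window. A match is a description of the letters and not of binding.

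The Sprouty genes lay lower together. Spry2 read 3.62 and 3.53 on the siNF45 arrays, against 4.40 and 4.48 on the siNTC arrays. It averaged 3.58 ± 0.06 in siNF45 and 4.44 ± 0.06 in siNTC (SD, n = 2 each), a difference of -0.87 (SE 0.12, limma adjusted p = 0.0791), or 1.82-fold lower. Its unadjusted p of 0.000466 was the smallest of the members. Spry1 read 1.71 and 1.53 in siNF45, against 2.38 and 2.23 in siNTC, and differed by -0.69 (SE 0.13, limma adjusted p = 0.124). Spry4 read 1.80 and 1.68 in siNF45, against 2.20 and 2.03 in siNTC, and differed by -0.38 (SE 0.13, limma adjusted p = 0.242). All 3 Sprouty genes, which encode antagonists of receptor tyrosine kinase signalling, lay lower without overlap, as did 32.6% of all tested genes. Spry1 averaged 1.62 in siNF45, below the filter value of 1.645, and reached the filter only through its siNTC arrays. Spry4 averaged 1.74 in siNF45, close to the filter value.

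The Spred genes, whose products bring the Ras inhibitor neurofibromin to the membrane, were less uniform. Spred2 read 3.89 and 3.85 in siNF45, against 4.11 and 4.16 in siNTC, a difference of -0.27 (SE 0.12, limma adjusted p = 0.323), and the groups did not overlap. Spred3 read 3.77 and 2.30 in siNF45, against 3.55 and 3.92 in siNTC. Its difference of -0.70 had an SE of 0.46 (limma adjusted p = 0.492) and rested on siNF45 replicate 2: without that array it was 0.035. Spred1 differed by -0.15 (95% interval -0.64 to 0.34), and by 0.10 without siNF45 replicate 2. The family median was -0.53 over 6 genes, with 3 lower at an unadjusted p under 0.05, and -0.28 without siNF45 replicate 2.

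Of the ETV factors, Etv4 and Etv5 read lower in siNF45 and Etv1 lay near 0. Etv5 read 2.56 and 2.29 in siNF45, against 3.05 and 2.97 in siNTC, and differed by -0.59 (SE 0.14, limma adjusted p = 0.149), 1.50-fold lower, with no overlap. A second Etv5 probe set, with a mean of 1.31 and below the filter, differed by 0.10. Etv4 read 1.03 and 0.98 in siNF45, against 1.92 and 1.71 in siNTC. Its mean over all arrays was below the filter, so it was not tested, while its difference of -0.81 had the same direction as that of Etv5. Etv1, a transcription factor of the same subfamily, read 7.86 and 7.83 in siNF45, against 7.84 and 7.71 in siNTC. It differed by 0.07 (95% interval -0.23 to 0.37), and its second probe set by 0.06. The Etv1 groups overlapped, and its interval leaves out the Etv5 difference of -0.59. The Etv5 difference has its own 95% interval of -0.94 to -0.23, and whether Etv1 and Etv5 differ was not tested.

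The 3 measured Fos genes lay lower in siNF45 and the Jun genes did not. Fosb, an AP-1 subunit, read 1.58 and 2.02 on the siNF45 arrays, against 2.82 and 2.77 on the siNTC arrays. It averaged 1.80 ± 0.31 in siNF45 and 2.80 ± 0.04 in siNTC (SD, n = 2 each), a difference of -1.0 (SE 0.17, limma adjusted p = 0.0970), or 1.99-fold lower. Fosl2, the subunit also called Fra-2, read 4.21 and 3.87 in siNF45, against 4.75 and 4.69 in siNTC, and differed by -0.68 (SE 0.15, limma adjusted p = 0.136). Fos read 3.18 and 2.73 in siNF45, against 3.56 and 3.44 in siNTC, and differed by -0.55 (SE 0.18, limma adjusted p = 0.226). All 3 Fos genes lay lower without overlap, as did 32.6% of all tested genes. In each, the siNF45 replicates lay farther apart than the siNTC replicates.

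Jun encodes the partner that forms AP-1 with the Fos proteins and is phosphorylated by JNK. It read 6.03 and 5.94 in siNF45, against 5.70 and 5.16 in siNTC. The difference was 0.56 (SE 0.20, limma adjusted p = 0.248), 1.47-fold higher, and the size depended on the siNTC arrays, with 0.29 without siNTC replicate 2 and 0.83 without siNTC replicate 1. Jun was not at an unadjusted p under 0.05 without siNTC replicate 2 or without either siNF45 array. Junb read 3.02 and 2.49 in siNF45, against 2.91 and 2.37 in siNTC, with overlapping groups and a difference of 0.12 (95% interval -0.51 to 0.74). Jund differed by 0.01 (95% interval -0.29 to 0.30). The direction of Junb and Jund turned when siNTC replicate 2 or siNF45 replicate 1 was left out. The difference between the Fos and the Jun genes was not itself tested.

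Promoters of Fos and Fosb are shown as those of AP-1 genes that lay lower in siNF45, with capitals as for the phosphatases.
Fos (chr12:85473640-85473939, plus strand): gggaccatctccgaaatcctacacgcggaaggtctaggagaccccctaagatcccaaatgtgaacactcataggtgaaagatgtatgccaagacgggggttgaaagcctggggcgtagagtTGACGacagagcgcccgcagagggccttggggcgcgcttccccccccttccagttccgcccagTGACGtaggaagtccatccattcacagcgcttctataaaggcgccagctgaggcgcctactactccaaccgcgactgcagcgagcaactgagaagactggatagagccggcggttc
Fosb (chr7:19309996-19310295, minus strand): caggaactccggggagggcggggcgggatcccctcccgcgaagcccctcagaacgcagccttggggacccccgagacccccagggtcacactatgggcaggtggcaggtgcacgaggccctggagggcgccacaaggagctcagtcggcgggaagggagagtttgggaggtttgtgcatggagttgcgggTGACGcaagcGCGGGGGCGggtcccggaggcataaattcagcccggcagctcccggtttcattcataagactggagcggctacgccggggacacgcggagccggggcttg
Fos held half-sites of the cyclic AMP response element 129 to 125 and 66 to 62 bases before the start. Fosb held a half-site 60 to 56 bases and an EGR site 50 to 42 bases before the start.

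The EGR factors, zinc-finger proteins of the immediate-early class, had no difference larger than the spread between replicates. Egr1 read 5.03 and 4.31 in siNF45, against 5.26 and 5.02 in siNTC. Its siNF45 replicate 1 lay just above siNTC replicate 2, so the groups overlapped, and its difference of -0.47 (SE 0.25, limma adjusted p = 0.407) was -0.11 without siNF45 replicate 2 and -0.83 without siNF45 replicate 1. Egr2 read 1.99 and 1.77 in siNF45, against 1.95 and 2.08 in siNTC, and differed by -0.14 (95% interval -0.48 to 0.21). Egr4 read 1.65 and 1.89 in siNF45, against 2.05 and 1.73 in siNTC, and differed by -0.12 (95% interval -0.53 to 0.29), or 0.01 after centring each array. Egr3, at 1.35 and 1.73 in siNF45 and 1.20 and 1.59 in siNTC, was below the level for testing. Egr2, Egr3 and Egr4 all lay near the filter value, so their differences rest on dim signals.

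**Figure D2:**
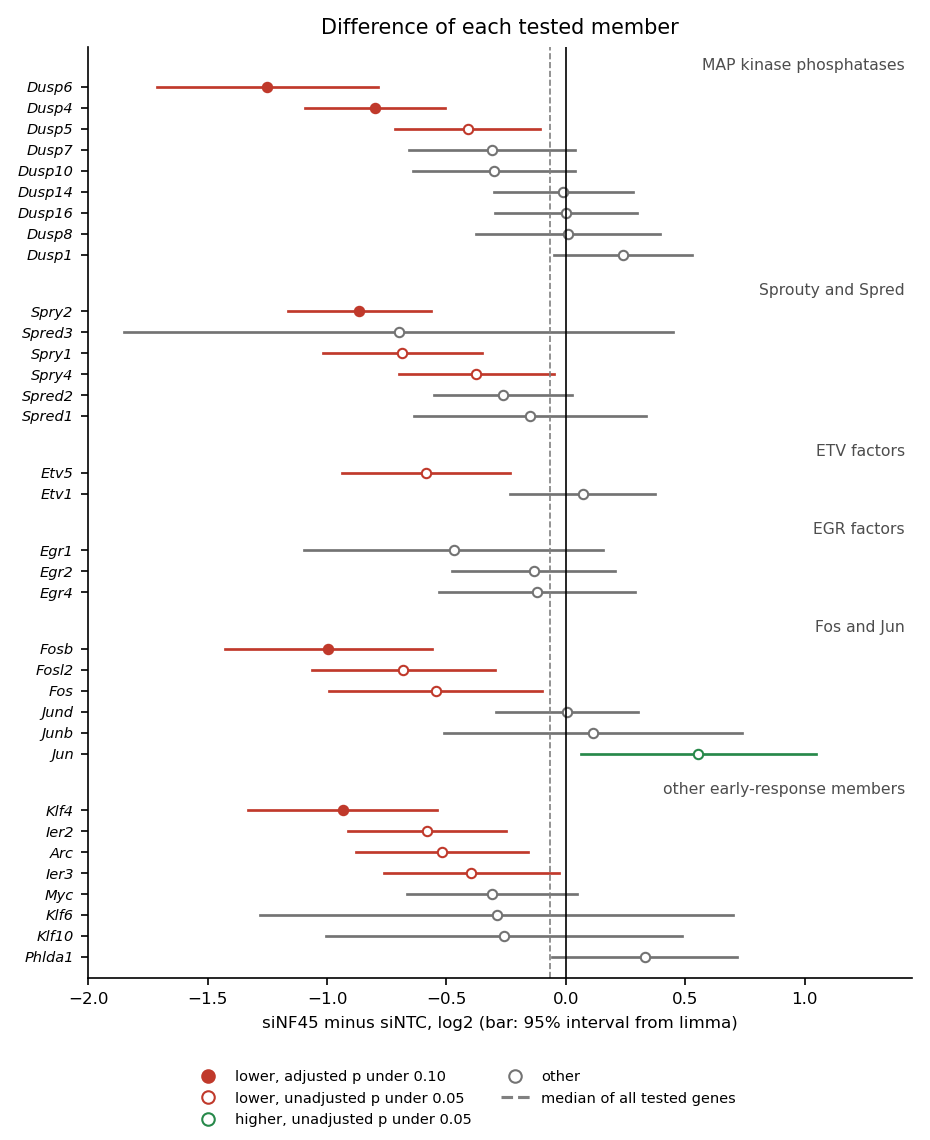
Difference of each of the 34 tested members, siNF45 minus siNTC on the log2 scale (horizontal axis), with its 95% interval from limma, grouped by family. Filled red points are the 5 members at an adjusted p under 0.10 (Dusp4, Dusp6, Spry2, Fosb and Klf4), open red points the other 9 that lay lower at an unadjusted p under 0.05, and the green point is Jun. The dashed line is the median of all tested genes, -0.07.

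Klf4 led the other early-response members. This Krüppel-like transcription factor read 2.74 and 2.48 on the siNF45 arrays, against 3.68 and 3.41 on the siNTC arrays. It averaged 2.61 ± 0.18 in siNF45 and 3.55 ± 0.19 in siNTC (SD, n = 2 each), a difference of -0.94 (SE 0.16, limma adjusted p = 0.0960), or 1.91-fold lower. Its promoter held a half-site of the cyclic AMP response element and 2 EGR sites, 211 to 203 and 194 to 186 bases before the start, and is shown for that reason.
Klf4 (chr4:55532426-55532725, minus strand): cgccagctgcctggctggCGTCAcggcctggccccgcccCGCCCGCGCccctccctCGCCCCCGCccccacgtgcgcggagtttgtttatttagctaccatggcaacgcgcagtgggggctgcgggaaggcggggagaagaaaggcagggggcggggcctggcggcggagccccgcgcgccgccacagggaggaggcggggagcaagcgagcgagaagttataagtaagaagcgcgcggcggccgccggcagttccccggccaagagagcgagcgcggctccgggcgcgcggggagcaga
The related Klf6 and Klf10 had siNF45 arrays on either side of the siNTC arrays. Klf6 read 4.20 and 2.91 in siNF45, against 3.86 and 3.83 in siNTC, and Klf10 read 3.36 and 2.43 in siNF45, against 3.21 and 3.10 in siNTC. Their differences of -0.29 and -0.26 turned to 0.36 and 0.21 without siNF45 replicate 2.

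Of the small immediate-early genes, Ier2 read 1.86 and 2.05 in siNF45, against 2.60 and 2.47 in siNTC, and differed by -0.58 (SE 0.13, limma adjusted p = 0.141). Ier3, whose product is an ERK substrate, read 2.04 and 1.73 in siNF45, against 2.31 and 2.25 in siNTC, and differed by -0.40 (SE 0.15, limma adjusted p = 0.264). Arc, best known as a synaptic immediate-early gene, read 2.13 and 2.06 in siNF45, against 2.76 and 2.47 in siNTC, and differed by -0.52 (SE 0.15, limma adjusted p = 0.180). These 3 genes lay lower without overlap, as did 32.6% of all tested genes. Ier5 was below the level for testing, at 1.39 and 1.38 in siNF45 and 1.58 and 1.55 in siNTC. Myc, which drives growth and biosynthesis, read 2.70 and 2.85 in siNF45, against 3.21 and 2.96 in siNTC, and differed by -0.31 (95% interval -0.67 to 0.05). Phlda1 was the exception in direction, at 3.79 and 3.95 in siNF45, against 3.70 and 3.38 in siNTC, a difference of 0.33 (95% interval -0.06 to 0.72).

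Set side by side, the family medians were -0.53 for the 6 Sprouty and Spred genes, -0.35 for the 8 other early-response genes, -0.30 for the 9 tested phosphatases, -0.27 for the 6 Fos and Jun genes, -0.26 for the 2 tested ETV factors and -0.14 for the 3 tested EGR factors, where the median of all tested genes was -0.07. Whether neighbouring families in this order differ was not tested, and the order changed between arrays: without siNF45 replicate 2 the median was -0.28 for the Sprouty and Spred genes and -0.31 for the other early-response genes. The Fos and Jun median was -0.14 without siNF45 replicate 2 and -0.46 without siNF45 replicate 1, and the median of the other early-response genes was -0.55 without siNF45 replicate 1. The phosphatase median was -0.20 without siNF45 replicate 2 and -0.18 without siNF45 replicate 1. At an unadjusted p under 0.05, the lower members numbered 3 of 6 Sprouty and Spred genes, 4 of 8 other early-response genes, 3 of 9 phosphatases, 3 of 6 Fos and Jun genes, 1 of 2 ETV factors and 0 of 3 EGR factors, where 13.2% of all tested genes were lower. Among the EGR factors limma gave the smallest adjusted p, 0.407, to Egr1. Spry1, counted among the lower Sprouty and Spred genes, reached the filter only through its siNTC arrays. Without a filter the Sprouty and Spred median was also -0.53.

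The siNF45 replicates did not weigh equally. Against the siNTC mean, the median member stood at -0.24 on siNF45 replicate 1 and at -0.45 on siNF45 replicate 2, while the median of all tested genes stood at -0.04 and -0.10. The siNF45 arrays differed from each other by a median of 0.22 over the members, against 0.13 for the siNTC arrays, and by 0.15 in both groups over all tested genes. Without siNF45 replicate 2, 10 members lay lower at an unadjusted p under 0.05, against 7.16% of all tested genes, and 0 higher, against 3.37%. Without siNF45 replicate 1 these counts were 16, against 11.7%, and 0, against 2.50%. Without siNTC replicate 1 they were 7, against 7.10%, and 2, against 3.42%, and without siNTC replicate 2 they were 12, against 9.14%, and 0, against 2.13%. Each of these counts is out of the 34 tested members, while the figures for all tested genes are percentages. The share of lower members was above that of all tested genes in each case, and the share of higher members only without siNTC replicate 1. With the filter at the 70th percentile, 7 of 22 members lay lower, against 15.7%. After quantile normalization 14 of 34 lay lower, against 11%, and 2 of 34 higher, against 6.44%. Dusp4, Dusp6, Klf4 and Spry2 were lower at that level in each alternative fit that kept all 4 arrays, and Fosb, Ier2 and Spry1 wherever tested. This was largely fixed in advance, since these members had small p-values on the same arrays. Spry1 also reached the filter only through its siNTC arrays. Without 1 array, Dusp4 ranged from -0.835 to -0.765, Dusp6 from -1.465 to -1.035, Klf4 from -1.07 to -0.80 and Spry2 from -0.91 to -0.82. Fosb ranged from -1.215 to -0.775, Ier2 from -0.675 to -0.485 and Spry1 from -0.775 to -0.595. A fit without 1 array leaves 1 array in a group, so its adjusted p-values were not used to judge the 34 members.

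**Figure D3:**
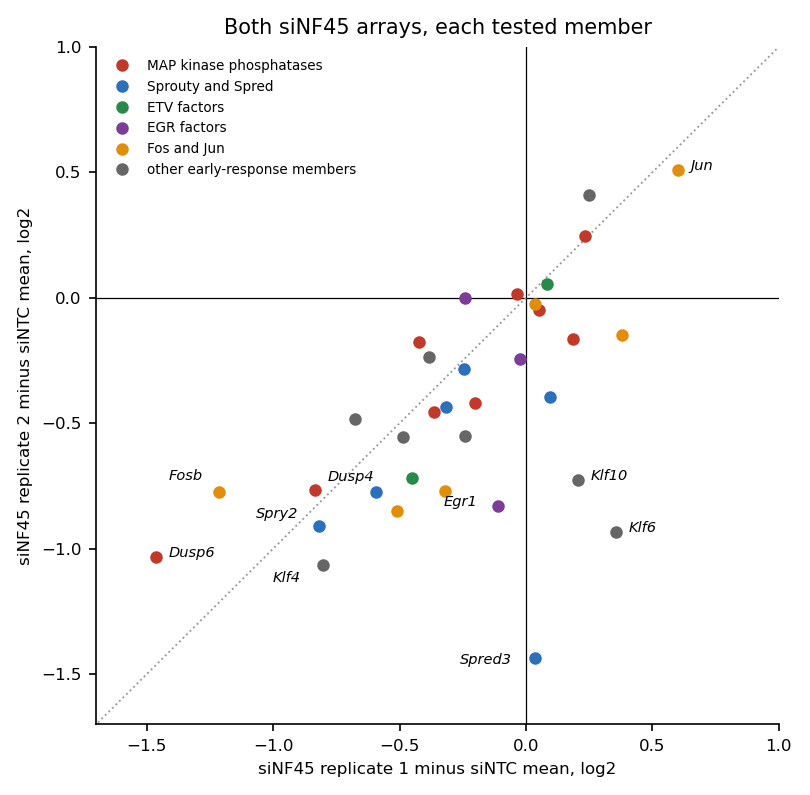
Each of the 34 tested members on siNF45 replicate 1 (horizontal axis) and siNF45 replicate 2 (vertical axis), both as differences from the siNTC mean on the log2 scale, coloured by family. Points on the dotted line have equal values on both arrays. Dusp4 and Spry2 lie near the line at about -0.8 to -0.9, while Spred3, Klf6, Klf10 and Egr1 lie far below it.

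Other genes of the pathway were read from lists of gene names. Of 52 genes of the ERK cascade, from receptors to the transcription factors below ERK, 36 were tested, 10 listed genes were not analysed here and 6 were too dim. None passed an adjusted p of 0.05 in limma. At an unadjusted p under 0.05, 10 were lower, or 27.8%, against 13.2% of all tested genes, and 0 higher, against 4.02%, with a median of -0.21. The 4 with the smallest p were Srf, Frs3, Elk3 and Ets2. Srf encodes serum response factor, which binds the CArG box with ternary complex factors, and read 3.38 and 3.0 in siNF45, against 3.88 and 3.88 in siNTC, a difference of -0.69 (SE 0.16, limma adjusted p = 0.143). Elk3, one such ternary complex factor, read 2.80 and 2.18 in siNF45, against 3.40 and 3.25 in siNTC, a difference of -0.84 (SE 0.22, limma adjusted p = 0.165). Ets2, a factor phosphorylated by ERK, read 3.50 and 2.74 in siNF45, against 4.14 and 3.92 in siNTC, a difference of -0.91 (SE 0.26, limma adjusted p = 0.189). Frs3, an adaptor of fibroblast growth factor receptors, read 1.60 and 1.76 in siNF45, against 2.20 and 2.20 in siNTC, a difference of -0.52 (SE 0.12, limma adjusted p = 0.145). All 4, chosen by the smallest p, lay lower without overlap, as did 32.6% of all tested genes. The kinases Map2k1 and Map2k2, which activate ERK, and the ERK-activated kinase Rps6ka3, chosen after their values were seen, differed by -0.48, -0.43 and -0.45.

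Among immediate-early genes outside the members, Nr4a1 and Sik1 had the largest differences. Of 24 listed, 20 were tested and none passed an adjusted p of 0.05 in limma, while 8 lay lower, or 40.0%, and 1 higher, or 5.0%, at an unadjusted p under 0.05, against 13.2% and 4.02% of all tested genes. Their median was -0.19. Nr4a1, an orphan nuclear receptor, read 5.39 and 4.48 in siNF45, against 7.06 and 7.03 in siNTC, a difference of -2.11 (SE 0.29, limma adjusted p = 0.0791), or 4.32-fold lower, and the groups were far apart. Sik1, a kinase induced by cyclic AMP, read 3.47 and 3.37 in siNF45, against 4.69 and 4.47 in siNTC, a difference of -1.16 (SE 0.14, limma adjusted p = 0.0708). Trib1, a pseudokinase, read 3.03 and 3.37 in siNF45, against 4.08 and 4.0 in siNTC, a difference of -0.84 (SE 0.15, limma adjusted p = 0.108). Nr4a3, a relative of Nr4a1, read 1.9 and 1.52 in siNF45, against 2.64 and 2.33 in siNTC, a difference of -0.78 (SE 0.19, limma adjusted p = 0.145). Atf3, the 1 that was higher and named after its value was seen, differed by 0.45 (SE 0.13, limma adjusted p = 0.179). Nr4a1 and Sik1 thus had larger differences than any member except Dusp6, which exceeded that of Sik1.

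**Figure D4:**
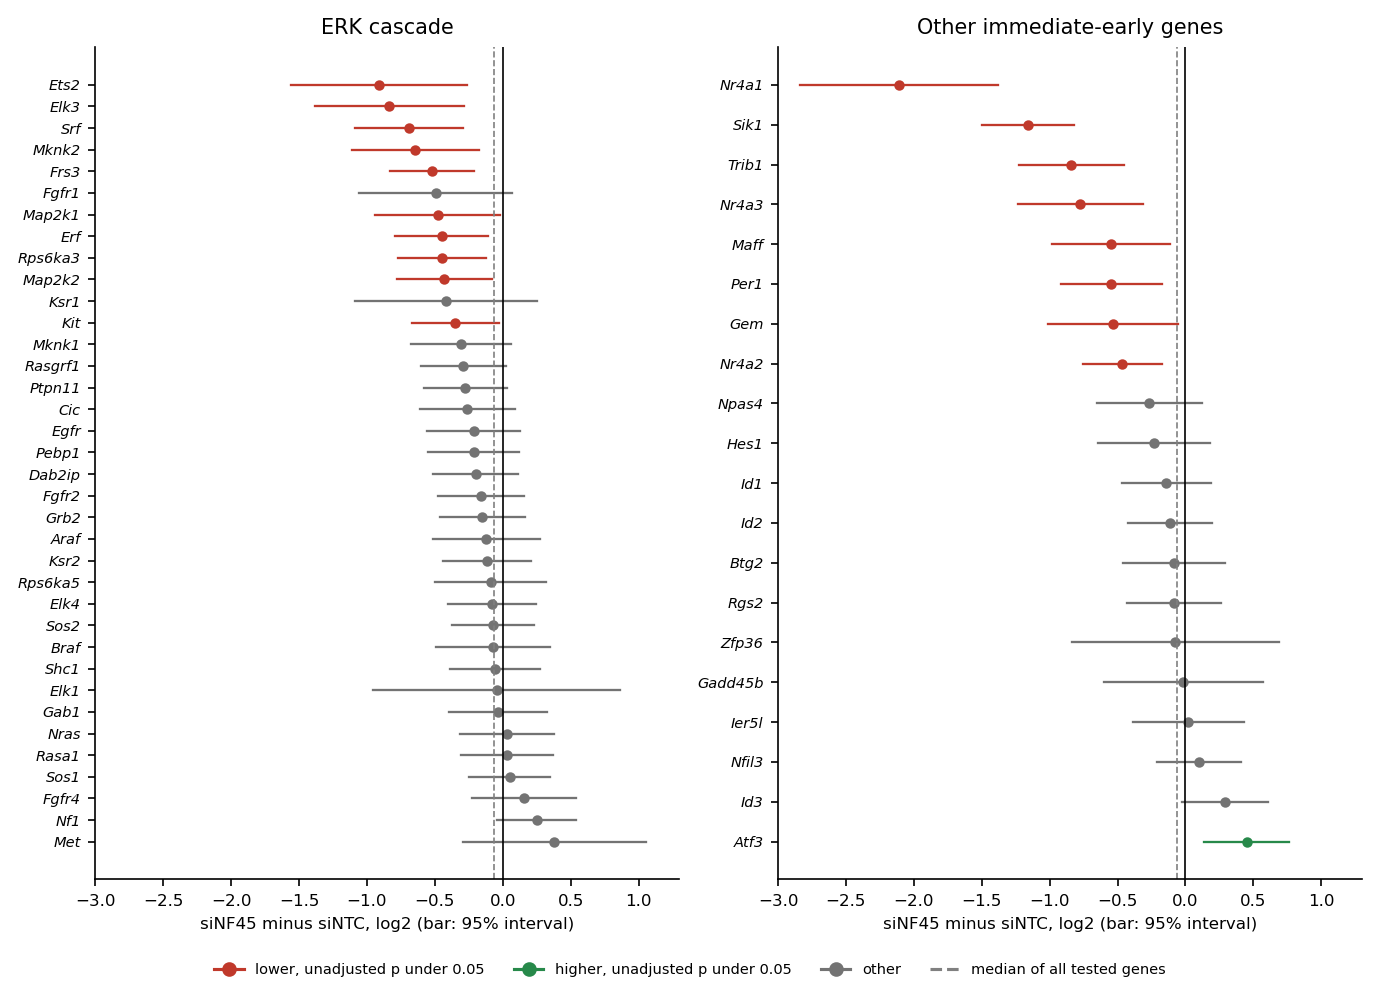
Differences, siNF45 minus siNTC on the log2 scale (horizontal axes) with 95% intervals from limma, of the 36 tested ERK cascade genes (left) and the 20 tested immediate-early genes outside the members (right), sorted by size. Red marks genes lower and green genes higher at an unadjusted p under 0.05, and the dashed line is the median of all tested genes. Ets2, Elk3 and Srf head the left panel, and Nr4a1 stands apart at -2.11 on the right.

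Of 21 tested genes of the JNK, p38 and ERK5 cascades, 7 were lower, or 33.3%, and 1 higher (Mapk10, at 0.38), or 4.76%, at an unadjusted p under 0.05, against 13.2% and 4.02% of all tested genes. Their median was -0.21, and none passed an adjusted p of 0.05 in limma. Map2k3, a kinase that activates p38, read 4.09 and 3.99 in siNF45, against 4.68 and 4.60 in siNTC, a difference of -0.60 (SE 0.12, limma adjusted p = 0.128). Mapk12, a p38 isoform, read 2.10 and 2.50 in siNF45, against 2.94 and 2.86 in siNTC, a difference of -0.60 (SE 0.17, limma adjusted p = 0.179). Map3k4, a kinase upstream of JNK and p38, read 4.08 and 4.18 in siNF45, against 4.74 and 4.48 in siNTC, a difference of -0.48 (SE 0.14, limma adjusted p = 0.197). The p38 target kinase Mapkapk2 read 4.60 and 4.0 in siNF45, against 4.97 and 4.97 in siNTC, a difference of -0.67 (SE 0.21, limma adjusted p = 0.215). Each of these named kinases, chosen by the smallest p, lay lower without overlap, as did 32.6% of all tested genes.

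Of 11 tested DUSP and ETV relatives outside the members, 2 lay below siNTC and 2 above, or 18.2% each, at an unadjusted p under 0.05, against 13.2% and 4.02% of all tested genes. None of the 11 passed an adjusted p of 0.05 in limma. Dusp19, an atypical phosphatase, read 3.50 and 3.48 in siNF45, against 2.93 and 2.86 in siNTC, a difference of 0.60 (SE 0.12, limma adjusted p = 0.124). Dusp18, another atypical phosphatase, read 5.78 and 5.24 in siNF45, against 4.93 and 4.91 in siNTC, a difference of 0.59 (SE 0.20, limma adjusted p = 0.229). Both lay higher without overlap, as did 15.2% of all tested genes. Dusp3, a small phosphatase also called VHR, read 4.27 and 4.23 in siNF45, against 4.73 and 4.67 in siNTC, a difference of -0.45 (SE 0.12, limma adjusted p = 0.160). Dusp28 read 1.59 and 1.50 in siNF45, against 1.88 and 1.96 in siNTC, a difference of -0.38 (SE 0.12, limma adjusted p = 0.219), and it reached the filter only through its siNTC arrays.

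**Figure D5:**
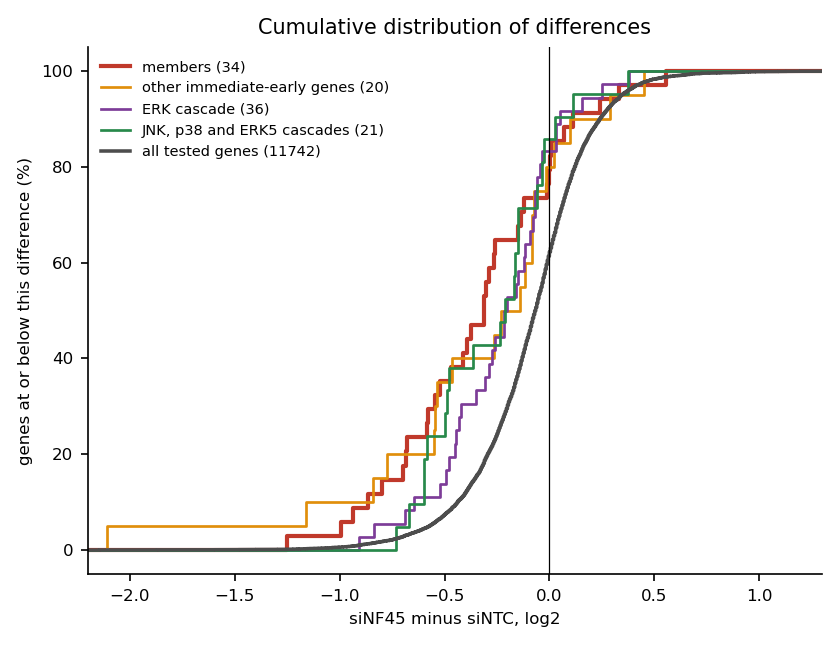
Cumulative share of genes (vertical axis, percent) at or below each difference, siNF45 minus siNTC on the log2 scale (horizontal axis). The red line is the 34 tested members, thinner lines are the 3 related lists, and the dark line is all 11742 tested genes. The line of the members lies left of that of all genes over most of its length, with medians of -0.31 and -0.07.

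Over the promoters, the share that held a CArG box was 14.7% of the 34 member promoters, from Dusp5 and from 4 Egr2 entries that lie close together, and 1.63% of all 32851 promoters of the same length. A half-site of the cyclic AMP response element was found in 41.2% of member promoters and 20.8% of all, a full element in 5.88% (Dusp1 and Dusp8) and 1.79%, and an EGR site in 14.7% and 5.55%. No member promoter held the AP-1 site, found in 7.81% of all, or the ETS site, found in 8.86% of all. Only 250 bases before to 50 bases after the start were searched, so a gene without a match can hold the site elsewhere. The member promoters were richer in G and C, with a median of 62.8% against 52.7% over all, which bears on matches to letters rich in these bases. The 2 members with a full cyclic AMP response element, Dusp1 and Dusp8, differed by 0.24 and 0.01. The limma intervals of both genes included 0, so neither was shown to be higher. Whether the element goes with the direction of a difference was not tested, and these values describe 2 genes only.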

How the data were processed

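RNA of 2 siNF45 and 2 siNTC samples was hybridised to 1 array per sample. The authors deposited log2 expression values for each probe set, produced with Transcriptome Analysis Console, per the submitters' processing notes. The sources used here give no version, summarisation, background correction or normalization. The log base, also unstated, was taken as 2 from the range of 0.12 to 12.2. Of 41345 probe sets, 23521 had 1 gene symbol, 1814 several and 16010 were unnamed here. The table names columns by sample, values are uncentred, and array medians were 1.64 to 1.66.

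All 4 arrays entered 1 fit of siNF45 minus siNTC without covariates (limma 3.58.1, R 4.3.3, lmFit and eBayes, residual degrees of freedom 2, prior 3.69), with Benjamini-Hochberg adjustment over the 11742 tested genes. The script was tested on simulated data. With 2 arrays against 2, an exact two-sided permutation p is at least 0.333, and none was used for members. The members and gene lists were chosen with earlier results of these data known. Every member is named, and the 4 members of a family, or genes of a list, with the smallest p get every array's value. The precision is limited by the number of arrays. No batch or scan date was used here. Alternatives were other filters, quantile normalization, centring, other eBayes settings, a block for the replicate number, averaging over a gene's probe sets, and leaving out each array.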

Additional observations from a re-analysis of the deposited data

How the results depend on the processing

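The number of calls was not stable. The leading members kept their direction, which was largely fixed in advance, since they had the smallest p and groups that did not overlap. The limma fit as reported called 10 genes, and 0 members, at an adjusted p of 0.05. It called 190 genes and 5 members at a threshold of 0.10, 87 genes and 2 members (Dusp4 and Spry2) with the filter at the 70th percentile, 62 genes and 0 members after quantile normalization, 172 genes (71 higher, 101 lower) and 3 members (Dusp6, Klf4 and Spry2) after centring, and 174 genes and 3 members (Dusp4, Dusp6 and Spry2) with a trend in eBayes. Fits without 1 array called 0 genes, which take the spread of a single array from the other group. Alternatives for counts at an unadjusted p under 0.05 were chosen after seeing the data: the 14 lower members numbered 7 with the stricter filter, where fewer members are tested, and 7 to 16 without 1 array, and the higher ones 2 after quantile normalization, 3 after centring and 0 to 2 without 1 array. Centring turned the median of all tested genes to 0.065.

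The same replicate numbers occur in both groups, and nothing in the labels pairs them. Deviations of same-numbered samples correlated at 0.0062 over genes. With the replicate block, 0 genes and 0 members were called and Ilf2 was at -2.17 (limma adjusted p = 0.258).

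The phosphatase median of -0.30 was -0.16 without a filter, -0.23 after quantile normalization, -0.17 after centring and -0.32 to -0.18 without 1 array. The ETV median of -0.26 was -0.59 without a filter, 0.07 at the stricter filter, where Etv1 alone is tested, and -0.13 after centring. The EGR median of -0.14 was -0.47 at the stricter filter, with Egr1 alone, -0.005 after centring and -0.28 to -0.11 without 1 array. The median of the other early-response members ranged from -0.55 to -0.31 without 1 array, and that of all tested members from -0.45 to -0.24. Differences near 0 changed sign: Dusp14 was 0.051 after quantile normalization, 0.12 after centring and -0.035 to 0.015 without 1 array, and Egr4 was 0.01 after centring and -0.28 to 0.04 without 1 array. Without 1 array, Dusp8 ranged from -0.17 to 0.19, Junb from -0.16 to 0.39, Jund from -0.04 to 0.05, Klf6 from -0.94 to 0.36, Klf10 from -0.73 to 0.21, Spred1 from -0.40 to 0.10 and Spred3 from -1.44 to 0.035. Causes were not tested.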
